A study of Mus musculus with 12 samples.

Results

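The complement genes beyond C1q were described in cultured mouse astrocytes: the C3 and C4 components themselves (C3, C4b), the factors that build the convertases (C2, Cfb) and the one that stabilises them (properdin, Cfp), the receptors for the split products C3a and C5a (C3ar1, C5ar1), and the regulators C1 inhibitor (Serping1) and decay-accelerating factor (Cd55). All probe sets that the supplied probe annotation pairs with exactly 1 of these 9 symbols were used. They were 15 probe sets of 7 genes, among 45037 probe sets and 18193 genes tested. C3 had no such probe set and the only one of C4b is shared with C4a, so neither gene was analysed here.

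RNA came from astrocytes of C57Bl/6j mice that carried green fluorescent protein (eGFP), kept for 22 h on a mouse brain section, and was hybridised to 12 one-colour Affymetrix arrays, 3 for each of 4 groups. The groups were adult cells (6 to 8 weeks) on APdE9 sections, adult cells on WT sections, neonatal cells (3 d in the labels, 2 days in the protocol text) on APdE9 sections and neonatal cells on WT sections. APdE9 mice carry a chimeric mouse/human APPSwe transgene and a PS1-dE9 transgene, each under a mouse prion protein promoter, and the WT sections came from their C57Bl/6j littermates, so the transgenes were in the section and not in the astrocytes. The fluorescent cells were loosened with trypsin and picked by suction, and the series asked how the 2 ages of astrocyte differ in expression when they meet amyloid ex vivo.

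Arrays are labelled as biological replicates, yet the protocol pools samples (n = 3) ahead of RNA isolation, so a p-value here speaks of the spread between pools, part of which may be technical. Percoll, DMEM/F12 and the G5 supplement were used for adult cells only and plain DMEM for neonatal cells only, so age cannot be told apart from preparation and medium. The deposited values were centred on each probe set's median over the 12 arrays and are read here as log2 signals, an assumption on which every fold rests, since the base of the logarithm is not given in the sources used here. A value of 0 is therefore the middle of the 12 arrays for that gene, levels cannot be compared between genes, and whether a cell type's marker is present or absent cannot be read from the table. The arrays' medians lay between -0.0384 and 0.0342. The number of arrays limits the precision. In RNA from many cells, fewer cells of a type and less RNA per cell cannot be told apart.

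Complement is a cascade of proteins that tags surfaces and calls phagocytes. The classical and lectin routes use C4 and C2, and the alternative route uses factor B, to build enzymes that cleave C3, whose fragments C3a and, further on, C5a act on G protein-coupled receptors. In the brain, astrocytes are known as a source of several complement proteins, whereas C1q and the receptors for C3a and C5a are mostly known from microglia, and complement proteins are known to gather at amyloid plaques.

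In adult cells the section mattered most for Cfb, which encodes factor B, the serine protease of the alternative-route C3 convertase. Its values were 0.13, 0.17 and 0.21 log2 in adult cells on APdE9 sections, against -2.57, -2.11 and -2.59 log2 in adult cells on WT sections. All 3 arrays with APdE9 sections were far above all 3 with WT sections. The difference was 2.60 ± 0.14 log2 (SE, limma adjusted p = 2.12e-07), or 6.05-fold, with a 95% interval of 2.30 to 2.90 log2. It was 1.88 log2 after quantile normalization.

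In neonatal cells Cfb was at -0.02, 0.33 and 0.02 log2 on APdE9 sections and at 0.15, -0.13 and -0.14 log2 on WT sections. These 2 groups overlapped. The difference was 0.15 ± 0.14 log2 (SE, limma adjusted p = 0.749), with a 95% interval of -0.15 to 0.45 log2. The section effect in adult cells exceeded that in neonatal cells by 2.45 ± 0.20 log2 (SE, limma adjusted p = 1.65e-05). Adult cells on WT sections thus held the 3 lowest values of Cfb, while the other 9 arrays lay between -0.14 and 0.33 log2. The section comparison in adult cells, the age comparison on WT sections and the difference of the section effects share these 3 arrays and are not independent of each other.

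C2, which encodes the protease subunit of the classical and lectin C3 convertase and lies next to Cfb on chromosome 17 with 0 protein-coding genes between them (RefSeq, GRCm38.p6), moved the same way by less. C2 was at -0.27, -0.28 and -0.26 log2 in adult cells on APdE9 sections, against -0.89, -0.79 and -0.89 log2 in adult cells on WT sections. The 2 groups lay well apart, with little spread inside either. The difference was 0.59 ± 0.09 log2 (SE, limma adjusted p = 0.000684), or 1.5-fold. In neonatal cells C2 was at 0.44, 0.30 and 0.64 log2 on APdE9 sections and at 0.27, 0.24 and 0.40 log2 on WT sections, which overlapped (difference 0.16 ± 0.09 log2, adjusted p = 0.493). The difference of the 2 section effects, 0.43 ± 0.13 log2, missed the threshold (limma adjusted p = 0.0523).

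**Figure D1:**
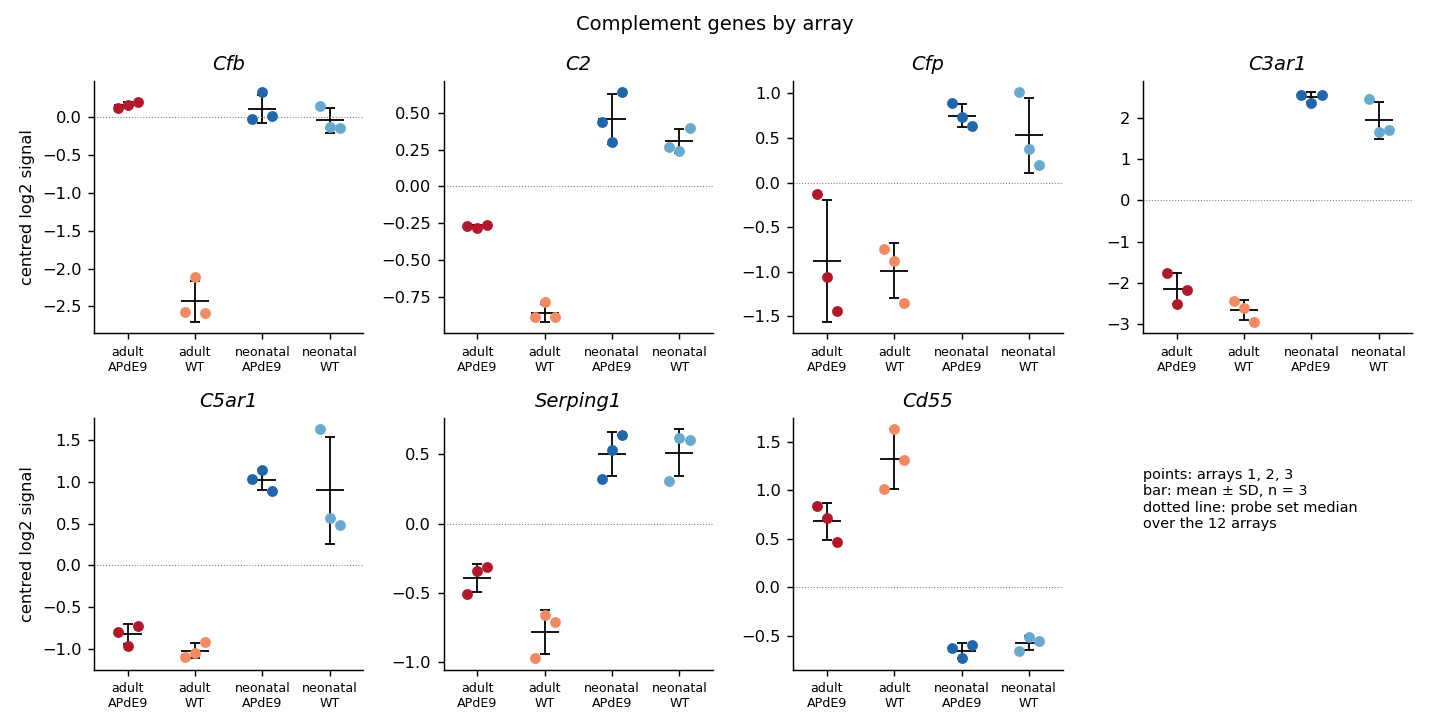
Centred log2 signal of the 7 complement genes measured on each of the 12 arrays, 1 panel a gene, with points for arrays, a long bar for the group mean and whiskers for the SD (n = 3 a group). Cfb is low in adult cells on WT sections alone, at -2.59 to -2.11 log2, whereas C3ar1, C5ar1, Cfp, C2 and Serping1 lie lower, and Cd55 higher, in both groups of adult cells than in both groups of neonatal cells.

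The 3 probe sets of C2 did not give the same size. In adult cells the section effect was 0.67 log2 for 1416051_at (adjusted p = 0.000637) and 0.77 log2 for 1457664_x_at (adjusted p = 0.00101), but 0.33 log2 for 1441912_x_at (adjusted p = 0.0847), p-values being adjusted over all 45037 probe sets. By its suffix, an _x_at probe set can also bind other transcripts. For 1416051_at, which has no such suffix, the section effect in adult cells exceeded that in neonatal cells by 0.57 ± 0.14 log2 (adjusted p = 0.0266). The same difference was not called for 1457664_x_at (0.57 ± 0.17 log2, limma adjusted p = 0.0665) or 1441912_x_at (0.15 ± 0.16 log2, adjusted p = 0.692).

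Cfp encodes properdin, a plasma protein known to stabilise the alternative-route convertase. Cfp was at -0.13, -1.06 and -1.44 log2 in adult cells on APdE9 sections, against -0.75, -0.88 and -1.35 log2 in adult cells on WT sections. The groups overlapped, and the first array on APdE9 sections stood above all the others of both groups. The difference was 0.12 ± 0.30 log2 (SE, limma adjusted p = 0.832), and -0.26 log2 without that array. In neonatal cells the difference was 0.22 ± 0.30 log2 (adjusted p = 0.866). Cfp was at 0.89, 0.73 and 0.63 log2 there on APdE9 sections and at 1.01, 0.38 and 0.20 log2 on WT sections. In every group its gene value thus fell from array 1 to array 2 to array 3. Probe set 1447537_at fell likewise in every group, and 1452279_at only in some. The main fit took no account of array numbers, so this shared fall counts as spread within groups.

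The 2 anaphylatoxin receptor genes gave no call between sections. C3ar1, the receptor gene for C3a, was at -1.76, -2.52 and -2.17 log2 in adult cells on APdE9 sections and at -2.45, -2.62 and -2.95 log2 in adult cells on WT sections. It was at 2.58, 2.37 and 2.58 log2 in neonatal cells on APdE9 sections and at 2.47, 1.66 and 1.71 log2 in neonatal cells on WT sections. At both ages the mean was higher on APdE9 sections and the groups of gene values overlapped. The differences were 0.52 ± 0.23 log2 in adult cells (limma adjusted p = 0.142, and -0.01 log2 after quantile normalization) and 0.56 ± 0.23 log2 in neonatal cells (adjusted p = 0.249), with 95% intervals of 0.03 to 1.01 and 0.07 to 1.06 log2. The probe sets of C3ar1 disagreed. In adult cells 1419482_at did not overlap (0.72 log2, limma adjusted p = 0.0563), while 1442082_at (0.69 log2) and 1419483_at (0.15 log2) did. In neonatal cells 1419483_at (0.68 log2, adjusted p = 0.157) and 1442082_at (0.75 log2, adjusted p = 0.448) did not overlap, while 1419482_at (0.26 log2) did. No probe set of C3ar1 was called between sections.

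C5ar1, the receptor gene for C5a, was at 1.04, 1.14 and 0.89 log2 in neonatal cells on APdE9 sections and at 1.63, 0.57 and 0.48 log2 in neonatal cells on WT sections. Array 1 of neonatal cells on WT sections held the highest value of all 12, and its 2 fellow arrays held the lowest of the neonatal cells. Without it, both receptor genes passed the test in neonatal cells, C3ar1 at 0.82 log2 (limma adjusted p = 0.0399) and C5ar1 at 0.50 log2 (adjusted p = 0.0236), whereas with it C5ar1 differed by 0.13 ± 0.23 log2 (adjusted p = 0.915). The mean of 20 microglia and macrophage markers was 1.82 log2 on that array, 1.27 and 1.30 log2 on the other 2 arrays of its group, and 1.95, 1.79 and 1.90 log2 in neonatal cells on APdE9 sections. The part of those markers in the receptor values was not tested. In adult cells C5ar1 differed between sections by 0.20 ± 0.23 log2 (adjusted p = 0.611).

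Of the regulators, Serping1 was higher and Cd55 lower in adult cells on APdE9 sections. Serping1 encodes C1 inhibitor, a serpin that inactivates the C1r and C1s proteases. Its values were -0.51, -0.34 and -0.31 log2 in adult cells on APdE9 sections, against -0.97, -0.66 and -0.71 log2 in adult cells on WT sections. The groups did not overlap, but their nearest arrays were close. The difference was 0.39 ± 0.12 log2 (SE, limma adjusted p = 0.0388). The call was held in 6 of the 12 fits that left out 1 array: it was lost without any 1 of the 3 arrays of adult cells on WT sections (adjusted p = 0.14, 0.0506 and 0.0611), without array 2 or array 3 of adult cells on APdE9 sections (0.118 and 0.104), and without array 2 of neonatal cells on APdE9 sections (0.0507). Quantile normalization also lost it (0.28 log2, adjusted p = 0.123), as did adjusting over probe sets (0.0599). In neonatal cells Serping1 was at 0.32, 0.53 and 0.64 log2 on APdE9 sections and at 0.31, 0.62 and 0.60 log2 on WT sections, a difference of -0.01 ± 0.12 log2 (adjusted p = 0.99; 0.07 log2 after quantile normalization).

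Cd55 encodes a membrane protein that takes C3 convertases apart on the cell's own surface. Its values were 0.84, 0.72 and 0.47 log2 in adult cells on APdE9 sections, against 1.01, 1.63 and 1.31 log2 in adult cells on WT sections. All 3 arrays on APdE9 sections were below all 3 on WT sections. The difference was -0.64 ± 0.14 log2 (SE, limma adjusted p = 0.00718), or 1.56-fold lower. In neonatal cells Cd55 was at -0.62, -0.73 and -0.59 log2 on APdE9 sections and at -0.65, -0.51 and -0.55 log2 on WT sections, which overlapped (difference -0.08 ± 0.14 log2, adjusted p = 0.911). The 2 section effects differed by -0.56 ± 0.20 log2 (adjusted p = 0.103).

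The 3 probe sets of Cd55 disagreed on the section and agreed in sign on age. In adult cells the section effect was -1.19 ± 0.13 log2 for 1418762_at (adjusted p = 9.47e-05), -0.64 ± 0.16 log2 for 1443906_at (adjusted p = 0.0186) and -0.09 ± 0.21 log2 for 1460242_at (adjusted p = 0.847). For 1418762_at the values were 0.55, 0.60 and 0.20 log2 on APdE9 sections, against 1.49, 1.91 and 1.51 log2 on WT sections, while for 1460242_at they were 1.07, 0.86 and 0.38 log2 on APdE9 sections and 0.46, 1.34 and 0.76 log2 on WT sections. The first pair of groups lay far apart and the second overlapped. The section effects of the 2 ages differed by -1.09 ± 0.19 log2 for 1418762_at (adjusted p = 0.00476). That difference was not called for 1443906_at (-0.38 ± 0.22 log2, limma adjusted p = 0.412) or 1460242_at (-0.21 ± 0.30 log2, adjusted p = 0.786). Which transcripts of Cd55 each probe set detects was not analysed here.

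**Figure D2:**
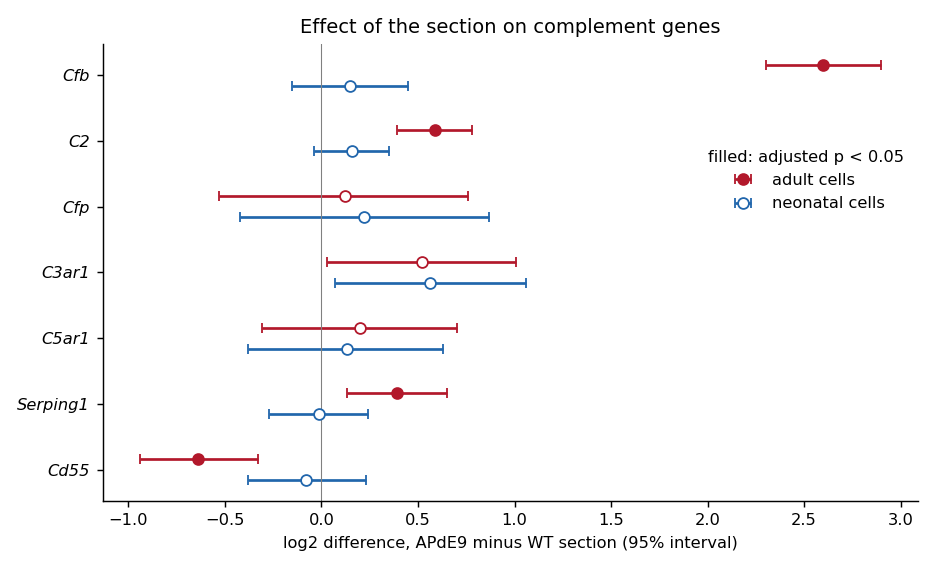
Difference between APdE9 and WT sections in log2 (x axis, with 95% interval) for the 7 complement genes measured, adult cells in red above neonatal cells in blue, filled where the adjusted p was below 0.05. Cfb in adult cells stands apart at 2.60 log2, C2 and Serping1 lie to the right of 0 and Cd55 to the left, and no neonatal point is filled.

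In all, 4 of the 7 complement genes measured were called between sections in adult cells, 3 higher and 1 lower, where 17.7% of all genes were called in that comparison, 8.26% higher and 9.4% lower. The same 4 genes were those whose groups did not overlap, against 36.0% of all genes. In neonatal cells 0 of 7 were called by limma, with 1 (C3ar1) at an unadjusted p below 0.05, against 3.76% of all genes called. For the difference of the section effects 1 of 7 was called (Cfb), with 10.1% of all genes called (5.19% upward and 4.88% downward) and 4 members at an unadjusted p below 0.05. The median difference of the 7 genes was 0.39 log2 in adult cells, 0.15 log2 in neonatal cells and 0.07 log2 for the difference between them, beside 0.05, 0.0 and 0.04 log2 over all genes. By probe set, 5 of 15 were called in adult cells (12.7% of all probe sets) and 0 of 15 by limma in neonatal cells (2.0%, with 1 at an unadjusted p below 0.05), while for the difference of the section effects 3 of 15 were called (6.73%).

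Markers of cell types also moved between sections and stand here beside these counts. Of 20 microglia and macrophage markers measured, which include C1qa, C1qb, C1qc and Itgam, 6 were higher and 1 was lower in adult cells on APdE9 sections, and their mean lay between -1.42 and -1.34 log2 there, against -2.06 to -1.81 log2 on WT sections. After quantile normalization 2 were higher and 1 was lower on APdE9 sections. Of 10 astrocyte markers, 5 were higher and 1 was lower in adult cells on APdE9 sections, with means of -0.67 to -0.64 log2 there against -0.81 to -0.76 log2 on WT sections (2 higher and 1 lower after quantile normalization). Of 7 oligodendrocyte markers, 4 were higher and 0 lower in adult cells on APdE9 sections (3 higher after quantile normalization or median centring), with means of 0.17 to 0.34 log2 there against -0.38 to -0.26 log2 on WT sections. Among them Mbp, a myelin protein, was higher by 1.78 ± 0.20 log2 (limma adjusted p = 5.56e-05), and in neonatal cells by 1.80 ± 0.20 log2 (adjusted p = 0.00053). Cnp, on the same list, differed by 0.27 ± 0.08 log2 in adult cells (adjusted p = 0.0365) and by -0.59 ± 0.08 log2 in neonatal cells (adjusted p = 0.00191). The median difference of the list was 0.27 log2 in adult and -0.04 log2 in neonatal cells. Of 9 markers of fibroblasts and meninges, 2 were higher and 3 lower in adult cells, with means of 0.21 to 0.61 log2 on APdE9 sections against 0.59 to 0.86 log2 on WT sections. Of 6 neutrophil markers 2 were higher, with means of 0.10 to 0.18 log2 against -0.30 to -0.17 log2, and of 9 neuron markers 2 were lower, with means of -0.14 to -0.03 log2 against 0.05 to 0.16 log2. By limma 0 of 7 endothelium markers and 0 of 7 markers of ependyma and choroid plexus were called (3 and 0 at an unadjusted p below 0.05; 1 endothelium marker was called higher after quantile normalization). In neonatal cells 4 microglia markers were higher and 4 astrocyte markers lower on APdE9 sections. There 2 oligodendrocyte markers were higher and 1 lower, 2 fibroblast markers higher and 1 lower, 1 neutrophil marker higher and 2 ependyma markers lower (1 after quantile normalization), while 0 neuron and 0 endothelium markers were called by limma (1 of each at an unadjusted p below 0.05). The part of these markers in the complement values was not tested.

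Age gave larger differences than the section for 6 of the 7 genes, all but Cfb. Between adult and neonatal cells on WT sections 7 of 7 were called, 6 lower and 1 higher in adult cells (30.1% of all genes were called, 15.2% lower and 14.9% higher). On APdE9 sections 6 of 7 were called, 5 lower and 1 higher (23.5% of all genes, 11.9% lower and 11.7% higher). By probe set, 14 of 15 were called on WT sections and 13 of 15 on APdE9 sections, against 22.9% and 16.4% of all probe sets. The groups did not overlap for 7 of 7 genes on WT sections and 6 of 7 on APdE9 sections, against 42.0% and 37.2% of all genes. The median difference was -1.52 log2 on WT sections and -0.89 log2 on APdE9 sections, beside 0.01 and 0.05 log2 over all genes.

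C3ar1 had the largest age difference of the 7. It was 25.3-fold lower in adult than in neonatal cells on APdE9 sections (-4.66 ± 0.23 log2, limma adjusted p = 1.55e-08) and 24.6-fold lower on WT sections (-4.62 ± 0.23 log2, adjusted p = 1.18e-08). Its 3 probe sets ranged from -5.17 to -3.57 log2 on WT sections. C5ar1 was lower in adult cells, with differences of -1.85 ± 0.23 log2 on APdE9 sections (adjusted p = 7.11e-05) and -1.92 ± 0.23 log2 on WT sections (adjusted p = 3.82e-05), and here too the probe sets differed in size, at -2.90 log2 for 1439902_at and -0.94 log2 for 1422190_at on WT sections. The promoter windows of both receptor genes are shown because the pair shared this direction, as Cfp, C2 and Serping1 also did. They run from 250 bases before to 50 after the RefSeq start (GRCm38.p6, both on the minus strand, C3ar1 at chr6:122856108-122856407 and C5ar1 at chr7:16259289-16259588), with a match to the C/EBP form TTNNGNAA in capitals.
C3ar1: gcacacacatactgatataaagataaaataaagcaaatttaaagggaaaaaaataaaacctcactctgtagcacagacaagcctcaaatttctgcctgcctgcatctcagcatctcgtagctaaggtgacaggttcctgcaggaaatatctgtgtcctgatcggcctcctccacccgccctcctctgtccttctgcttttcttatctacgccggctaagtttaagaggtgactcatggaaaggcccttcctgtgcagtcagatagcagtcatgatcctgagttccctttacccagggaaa
C5ar1: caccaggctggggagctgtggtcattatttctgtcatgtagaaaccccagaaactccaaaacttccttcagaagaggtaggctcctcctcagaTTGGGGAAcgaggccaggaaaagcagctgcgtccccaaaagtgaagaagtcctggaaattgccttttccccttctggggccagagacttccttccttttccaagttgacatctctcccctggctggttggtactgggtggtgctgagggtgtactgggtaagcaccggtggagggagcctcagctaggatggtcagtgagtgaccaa
The match in C5ar1, TTGGGGAA, begins at -157 from the start, and the form is found in 40.7% of 32851 promoters of that length. Neither window held the GAS form TTCNNNGAA (8.3% of promoters), the ISRE core, GAAA on either side of any 2 bases (3.44%) or the kappa B form, GGGAA and CC around any 3 bases (5.78%), and the C3ar1 window held none of the 4, all searched on both strands. The Cfp window, searched in the same way, held none of the 4 either, and no window was available for Cfb, C2 and Serping1. A match is only a match of letters.

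Cfp was lower in adult cells by gene value, at -1.63 ± 0.30 log2 on APdE9 sections (limma adjusted p = 0.00138) and -1.52 ± 0.30 log2 on WT sections (adjusted p = 0.00168). That mean hides 2 probe sets that did different things. For 1452279_at the values were -1.98, -1.92 and -2.18 log2 in adult cells on WT sections, against 1.96, 0.99 and 0.97 log2 in neonatal cells on WT sections, a difference of -3.33 ± 0.34 log2 (adjusted p = 1.26e-05). For 1447537_at they were 0.48, 0.16 and -0.51 log2 in adult cells and 0.05, -0.22 and -0.57 log2 in neonatal cells, which overlapped (0.29 ± 0.31 log2, adjusted p = 0.602). The same split held on APdE9 sections, at -3.32 and 0.07 log2.

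**Figure D3:**
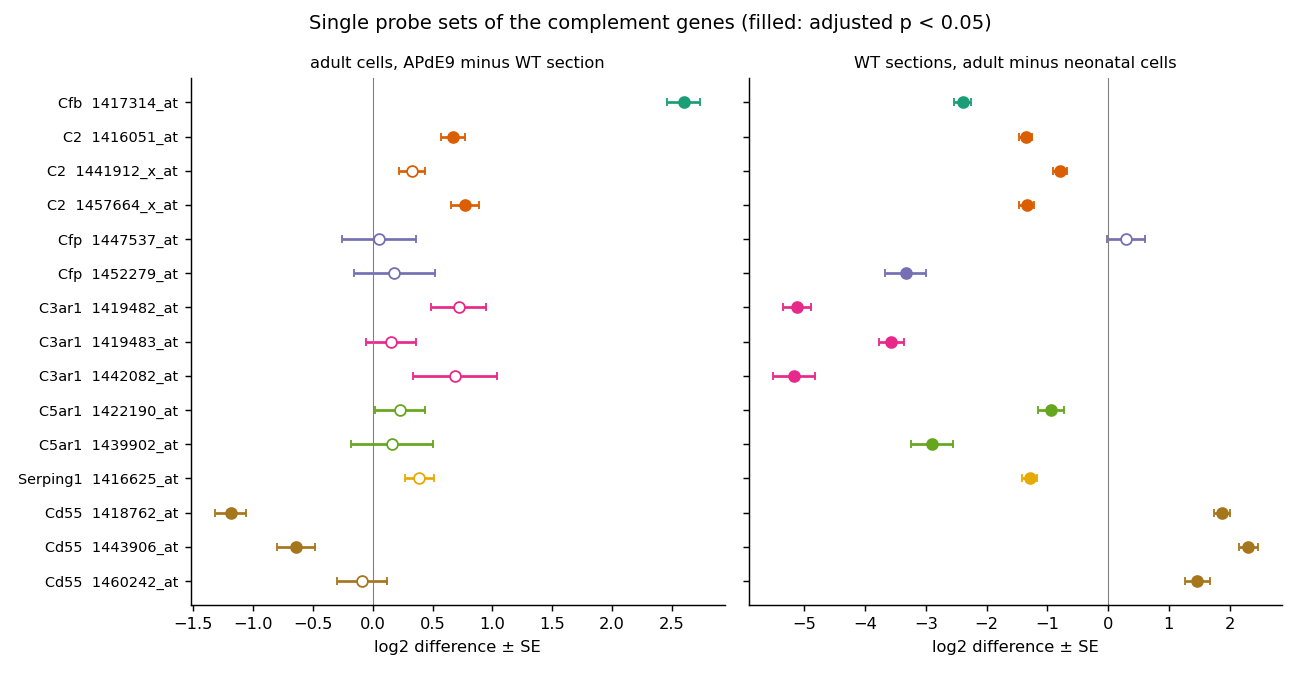
Log2 differences (x axis, bars for the SE) of the 15 single-gene probe sets of the 7 complement genes measured, for APdE9 minus WT sections in adult cells (left) and for adult minus neonatal cells on WT sections (right), filled where the adjusted p over all probe sets was below 0.05. The probe sets of Cd55 spread from -1.19 to -0.09 log2 on the left, and those of Cfp lie at -3.33 and 0.29 log2 on the right.

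**Figure D4:**
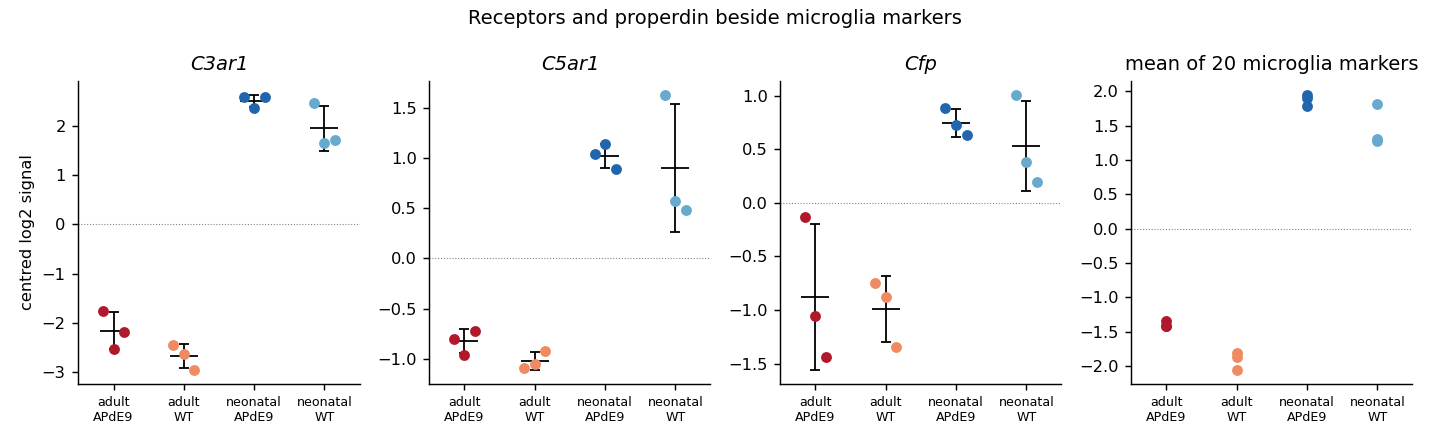
Centred log2 signal of C3ar1, C5ar1 and Cfp on each array, with group mean and SD (n = 3), and in the last panel the mean of 20 microglia and macrophage markers on each array. In all 4 panels both groups of adult cells lie below both groups of neonatal cells, and array 1 of neonatal cells on WT sections is the highest of its group (2.47, 1.63, 1.01 and 1.82 log2).

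Microglia markers moved with age in the same direction as these 3 genes. Of the 20 measured, 17 were lower and 0 higher in adult cells on APdE9 sections, and 17 were lower and 1 higher on WT sections. Their mean lay between -1.42 and -1.34 log2 in adult cells on APdE9 sections and between -2.06 and -1.81 log2 in adult cells on WT sections, against 1.79 to 1.95 and 1.27 to 1.82 log2 in the neonatal cells on the same sections. Csf1r, a receptor that microglia need to survive, differed by -3.77 ± 0.25 log2 between adult and neonatal cells on WT sections (limma adjusted p = 1.49e-07). The 1 marker called higher there was Tmem119 (1.03 ± 0.13 log2, adjusted p = 4.57e-05), and Gpr34 (0.06 log2) and Siglech (0.02 log2) were not called. Of 10 astrocyte markers, 6 were lower and 1 higher in adult cells on APdE9 sections, and 8 were lower and 2 higher on WT sections. Their mean lay between -0.67 and -0.64 log2 in adult and 0.56 and 0.70 log2 in neonatal cells on APdE9 sections. On WT sections it lay between -0.81 and -0.76 log2 in adult and 1.03 and 1.09 log2 in neonatal cells. There Gfap differed by -4.24 ± 0.11 log2 (limma adjusted p = 7.05e-11), and the 2 higher, Gja1 and S100b, by 0.35 and 0.58 log2. The part of either list in the complement values was not tested. Cultures of both ages had been shaken to remove microglia, and how many remained cannot be read from these values.

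C2 and Serping1 were lower in adult cells on both sections. C2 differed by -0.73 ± 0.09 log2 on APdE9 sections (limma adjusted p = 6e-05) and by -1.16 ± 0.09 log2 on WT sections (adjusted p = 7.05e-07). Serping1 differed by -0.89 ± 0.12 log2 on APdE9 sections (adjusted p = 0.000123) and by -1.29 ± 0.12 log2 on WT sections (adjusted p = 3.3e-06). Cfb depended on the section: it was 5.22-fold lower in adult than in neonatal cells on WT sections (-2.39 ± 0.14 log2, adjusted p = 5.58e-08), and on APdE9 sections the difference was 0.06 ± 0.14 log2 (adjusted p = 0.803; 95% interval -0.24 to 0.36 log2).

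Cd55 was the one member that was higher in adult cells. The difference was 1.33 ± 0.14 log2 on APdE9 sections (limma adjusted p = 1.56e-05) and 1.89 ± 0.14 log2 on WT sections (adjusted p = 4.97e-07), or 2.51-fold and 3.69-fold. Each of its 3 probe sets was called higher on both sections, at 0.79 to 1.94 log2 on APdE9 sections and 1.47 to 2.31 log2 on WT sections. Markers of vessels and meninges also moved with age. Of 7 endothelium markers 4 were higher and 0 lower in adult cells on APdE9 sections (3 higher after quantile normalization or median centring) and 3 higher and 1 lower on WT sections. Their mean lay between 0.55 and 0.64 log2 in adult cells and between -0.52 and -0.45 log2 in neonatal cells on APdE9 sections, and between 0.25 and 0.38 log2 in adult cells and -0.63 and -0.32 log2 in neonatal cells on WT sections. Of 9 markers of fibroblasts and meninges 3 were higher and 1 lower on APdE9 sections, with means of 0.21 to 0.61 log2 in adult cells against -0.64 to -0.23 log2 in neonatal cells. On WT sections 4 were higher and 0 lower (5 higher after median centring), with means of 0.59 to 0.86 log2 in adult cells against -0.72 to -0.03 log2 in neonatal cells. Esam, an endothelial adhesion molecule, differed by 3.87 ± 0.15 log2 on APdE9 sections (limma adjusted p = 2.62e-09), and Col1a1, a collagen of fibroblasts, by 3.08 ± 0.16 log2 (adjusted p = 3.4e-08). These were the largest differences of their lists there. The endothelium markers Pecam1, Kdr and Tie1 differed by 0.05, -0.08 and 0.08 log2. The collagen genes Col3a1 and Col1a2 differed by -0.37 log2 (limma adjusted p = 0.0324) and -0.34 log2 (adjusted p = 0.689). Of 7 markers of ependyma and choroid plexus, 3 were lower in adult cells on APdE9 sections and 4 on WT sections. The part of these markers in the Cd55 values was not tested. Its promoter window is shown because it was the 1 member called higher in adult cells (RefSeq, GRCm38.p6, chr1:130462695-130462994, minus strand, 250 bases before to 50 after the start), with a match to the kappa B form in capitals.
Cd55: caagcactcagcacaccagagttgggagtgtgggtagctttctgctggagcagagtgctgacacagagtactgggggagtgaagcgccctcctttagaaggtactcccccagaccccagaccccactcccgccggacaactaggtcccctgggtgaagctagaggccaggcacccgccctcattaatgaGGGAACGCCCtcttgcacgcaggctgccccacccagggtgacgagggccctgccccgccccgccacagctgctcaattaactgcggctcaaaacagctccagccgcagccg
The match, GGGAACGCCC, begins at -61 from the start. The other 3 forms searched were not found in this window, and nothing about the binding of a factor follows from these letters.

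The order of the 4 groups differed between genes. C3ar1 averaged -2.15 ± 0.38 and -2.67 ± 0.25 log2 in adult cells on APdE9 and WT sections, and 2.51 ± 0.12 and 1.95 ± 0.45 log2 in neonatal cells on APdE9 and WT sections (SD, n = 3 each). C5ar1 and Cfp had the same order, highest in neonatal cells on APdE9 sections (1.02 and 0.75 log2) and lowest in adult cells on WT sections (-1.02 and -0.99 log2), and for all 3 genes neighbours of the same age did not pass the test. C2 also had this order, at -0.27 and -0.86 log2 in adult cells on APdE9 and WT sections and 0.46 and 0.31 log2 in neonatal cells on APdE9 and WT sections, and its 2 adult groups differed. Serping1 averaged -0.39 and -0.78 log2 in adult cells on APdE9 and WT sections, below neonatal cells at 0.50 and 0.51 log2, which were not told apart. Cd55 was highest in adult cells, at 0.68 log2 on APdE9 sections and 1.32 log2 on WT sections, above neonatal cells at -0.65 and -0.57 log2, which were not told apart either.

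For the 4 genes called between sections, the genes with the most similar values over the 12 arrays were found by the root mean square (RMS) of the log2 differences among 16358 other genes. For Cfb they were Bst2 (0.33 log2), which encodes the interferon-induced membrane protein tetherin, Lgi2 (0.36 log2) and Pcolce2 (0.42 log2). Bst2 averaged 0.12 log2 in adult cells on APdE9 sections and -1.89 log2 on WT sections, beside 0.18 and 0.05 log2 in neonatal cells on APdE9 and WT sections. For C2 the nearest were Cln3 and Cds1 (0.12 log2 each) and Cytip (0.13 log2), and for Serping1 they were Sox1 (0.13 log2), Agpat3 and Slc13a3 (0.14 log2 each). For Cd55 they were Adh1 and Slc2a13 (0.21 log2 each) and Lpar4 (0.22 log2). An RMS is smaller for genes that vary less, so it ranks genes for 1 member only.

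Beside the 7 genes, 37 of 46 other complement genes on a list of starters, terminal factors, receptors and regulators were measured. In neonatal cells 0 of 37 were called between sections by limma (3.76% of all genes), with 9 at an unadjusted p below 0.05 and C1qa nearest at 0.51 ± 0.14 log2 (adjusted p = 0.0788). In adult cells 11 of 37 were called, 5 higher and 6 lower on APdE9 sections (17.7% of all genes). That split moved with the scaling, to 1 higher and 5 lower after quantile normalization and 3 higher and 8 lower after median centring. The median difference of the 37 was 0.07 log2 in adult cells and 0.07 log2 in neonatal cells, and it was 0.05 and 0.0 log2 over all genes.

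Among receptors, Itgb2, the shared beta chain of the integrin receptors for cleaved C3, was at -1.77, -1.85 and -1.64 log2 in adult cells on APdE9 sections, against -3.94, -3.95 and -4.09 log2 in adult cells on WT sections. All 3 arrays on APdE9 sections were far above those on WT sections (2.24 ± 0.16 log2, limma adjusted p = 2.03e-06; 1.29 log2 after quantile normalization). Itgam, the alpha chain that pairs with it in complement receptor 3, was higher by 0.66 ± 0.20 log2 (adjusted p = 0.0423), a call that was held in 5 of 12 fits without 1 array. The value was 0.39 log2 (adjusted p = 0.138) without array 2 of adult cells on WT sections and 0.41 log2 (adjusted p = 0.105) after quantile normalization, and the call was also lost with median centring (adjusted p = 0.0505) and with only the arrays compared (adjusted p = 0.087). The section effect of Itgb2 in adult cells exceeded that in neonatal cells by 1.73 ± 0.23 log2 (adjusted p = 0.00056). Both genes are also expressed by microglia, and Itgam is on the marker list above. The 2 called were of 6 receptors measured.

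Of 13 genes for the C1 complex and lectin starters, 2 were called higher and 4 lower in adult cells on APdE9 sections. C1qc and C1qa, chains of the pattern-binding C1q, were higher by 1.01 ± 0.21 log2 (limma adjusted p = 0.00584) and 0.48 ± 0.14 log2 (adjusted p = 0.0371), but stood at -0.06 and -0.16 log2 after quantile normalization. The call of C1qa was held in 7 of 12 fits without 1 array and lost with median centring (adjusted p = 0.0527). Masp1, a protease of the lectin route, was at -0.92, -0.96 and -0.85 log2 in adult cells on APdE9 sections, against -0.18, -0.01 and 0.01 log2 in adult cells on WT sections, with no overlap (-0.85 ± 0.11 log2, adjusted p = 0.000187). Colec12, a membrane collectin, was also lower (-0.57 ± 0.11 log2, adjusted p = 0.00425). The protease genes of C1 itself, C1ra (-0.40 ± 0.11 log2, adjusted p = 0.0226) and C1s1 (-0.37 ± 0.09 log2, adjusted p = 0.0178), were lower too; each call was held in 9 of 12 fits without 1 array, that of C1s1 was lost after quantile normalization (adjusted p = 0.0972) and that of C1ra with only the arrays compared (adjusted p = 0.0613). These 2 genes and Clu, below, fell outside the rule for naming genes and were chosen after their values were seen.

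Among 12 regulators, C4bp, the gene of a soluble inhibitor of the classical C3 convertase, was lower in adult cells on APdE9 sections, at 0.68, 0.73 and 0.59 log2, against 1.48, 2.07 and 1.78 log2 on WT sections, with no overlap (-1.11 ± 0.18 log2, limma adjusted p = 0.000969). Clu, the chaperone clusterin, which also blocks the terminal complex, was higher by 0.42 ± 0.10 log2 (adjusted p = 0.0122) and stood at -0.01 log2 after quantile normalization. The other 10 regulators were not called. Of 6 convertase and terminal factors measured, C8g, a chain of the terminal complex, was the 1 called (-0.62 ± 0.12 log2, adjusted p = 0.00431). The section effects in adult and neonatal cells differed for 6 of the 37 genes, 2 upward (Itgb2, Clu) and 4 downward (Masp1, C4bp, Colec12, C1s1), with 10.1% of all genes called.

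**Figure D5:**
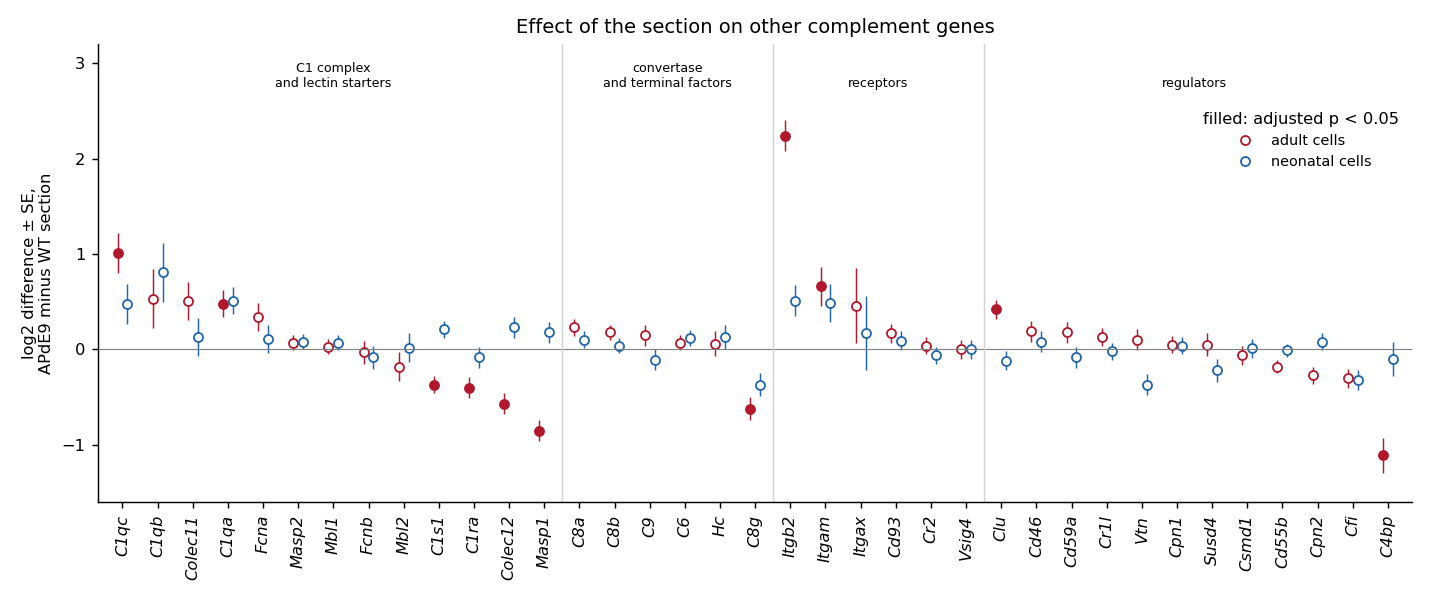
Difference between APdE9 and WT sections in log2 (y axis, bars for the SE) for the 37 other complement genes measured, in 4 role groups, adult cells in red and neonatal cells in blue, filled where the adjusted p was below 0.05. Itgb2 in adult cells is the highest at 2.24 log2 and C4bp the lowest at -1.11 log2, and all 37 neonatal points are open.

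With age, 3 of the 37 were higher and 14 lower in adult cells on APdE9 sections (23.5% of all genes called), and 4 were higher and 14 lower on WT sections (30.1%). The C1 and lectin starters held 8 of the 14 lower on APdE9 sections and 7 of the 14 on WT sections, with 0 higher, and the 6 convertase and terminal factors held 0 calls by limma on either section (1 and 0 at an unadjusted p below 0.05 on APdE9 and WT sections). C1qa, also on the microglia list, was lower in adult cells, with differences of -6.23 ± 0.14 log2 on APdE9 sections (limma adjusted p = 6.9e-11) and -6.20 ± 0.14 log2 on WT sections (adjusted p = 1.73e-11). Clu, which is not on that list, was lower too, with differences of -3.83 ± 0.10 log2 on APdE9 sections (adjusted p = 1.51e-10) and -4.37 ± 0.10 log2 on WT sections (adjusted p = 1.73e-11).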

How the data were processed

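Values were signals of 12 Affymetrix arrays, which the authors computed with RMA per the submitters' processing notes; the version and log base are not given in the sources used here. The deposited values were taken as log2 signals. For all 45095 probe sets with a value on every array, the 12 values had a median of 0 within 1e-06. Columns of 4 arrays were recorded as a score because 6 deposited values there exceed 100, having apparently lost a decimal point; these were set to missing. Of 45101 probe sets, 64 controls were left out. Of the rest 34945 had 1 gene in the supplied annotation, 932 several and 9160 none, and 34741 of the single-gene ones matched the mouse RefSeq table.

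Single-gene probe sets were averaged per gene. The 4 group means were fitted together with limma 3.58.1 (R 4.3.3; prior degrees of freedom 3.97, residual 8) and adjusted by Benjamini-Hochberg over 18193 genes, with a threshold of 0.05, in 5 comparisons: section at each age, the difference of these, and age on each section. The code was tested on simulated data. The members and lists were chosen with earlier results of these data known. Other complement genes were named if called between sections with groups that did not overlap, at most 8 a comparison by size. Figures used matplotlib 3.10.9. Replicate numbers were taken as pairs where every correlation of deviations passed 0.1: this was so in neonatal cells (0.305, 0.147 and 0.519 between sections) and on APdE9 sections (0.46, 0.206 and 0.473 between ages). It was not so in adult cells (0.348, -0.147 and 0.496 between sections) or on WT sections (0.404, 0.025 and 0.405 between ages). The main fit used no pairs. The labels do not say what a number shares. Other settings tried were array weights, quantile normalization, centring arrays on their median, a replicate block, robust variance, only the compared arrays in the fit, single probe sets, the probe set with the largest SD, an SD filter that dropped 40% of genes, another threshold, decimal points put back and each array left out.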

Additional observations from a re-analysis of the deposited data

Results flagged for a closer look

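The effect of the section differed between the ages, by a test of the difference itself, for Cfb (2.45 log2, adult minus neonatal), for the C2 probe set 1416051_at (0.57 log2) and for the Cd55 probe set 1418762_at (-1.09 log2). By gene value neither C2 (0.43 log2, limma adjusted p = 0.0523) nor Cd55 (-0.56 log2, adjusted p = 0.103) passed. Their other probe sets were not called either, at 0.57 and 0.15 log2 for C2 and -0.38 and -0.21 log2 for Cd55. Among other complement genes the section effect differed between the ages for Itgb2 (1.73 log2), Clu (0.54 log2), C1s1 (-0.58 log2), Colec12 (-0.80 log2), C4bp (-1.02 log2) and Masp1 (-1.04 log2). The call of Clu was held in 5 of 12 fits without 1 array, that of C4bp in 8 and that of C1s1 in 11. After quantile normalization those of Clu (0.23 log2, limma adjusted p = 0.548) and C4bp (-0.88 log2, adjusted p = 0.13) were lost.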

How the results depend on the processing

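For the 7 complement genes in the 5 comparisons, 348 of 373 values under other settings kept their direction and side of the threshold, as did 394 of 420 without 1 array; 8 and 4 newly passed it, 4 and 6 no longer did, and 13 and 16 changed sign. The adult section calls of Cfb, C2 and Cd55 were held in 12 of 12 fits without 1 array. The count of members called in neonatal cells (0) was 1 with array weights (C3ar1) and 0 to 2 without 1 array, the 2 being C3ar1 and C5ar1 without array 1 of neonatal cells on WT sections. The count for the difference of section effects (1, Cfb) was 3 with array weights (Cd55, Serping1 added), 3 with the replicate block (C2, Serping1 added), 3 by single probe sets and 1 to 2 without 1 array (C2 added without array 3 of neonatal cells on APdE9 sections, Cd55 without array 1 of adult cells on WT sections). With the replicate block C3ar1 was also called in adult cells (limma adjusted p = 0.0276), where the rule for pairs was not met (correlations of 0.348, -0.147 and 0.496). Where that rule was met, the block changed no member's call.

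The values that changed sign in neonatal cells were C5ar1 by 1422190_at (-0.02 log2), Cd55 by 1460242_at (0.13) and Serping1 by quantile normalization (0.07), and in adult cells C3ar1 by quantile normalization (-0.01). For the difference of section effects they were C3ar1 by 1419482_at (0.46), C5ar1 by quantile normalization (-0.12), array weights (-0.20), the probe set with the largest SD and 1439902_at (-0.11 each), and Cfp by the probe set with the largest SD and 1452279_at (0.01 each). By 1447537_at, Cfp was at 0.07 log2 for age on APdE9 sections and 0.29 log2 on WT sections. Quantile normalization also turned C1qa (-0.16), C1qc (-0.06) and Clu (-0.01) in adult cells, and C1qc (-0.17) and Itgam (-0.07) for the difference. Without 1 array the range crossed 0 in neonatal cells for C5ar1 (-0.08 to 0.50 log2) and Serping1 (-0.11 to 0.07), in adult cells for Cfp (-0.26 to 0.40), for the difference for C3ar1 (-0.30 to 0.14), C5ar1 (-0.30 to 0.28), Cfp (-0.48 to 0.18), C1qa (-0.19 to 0.12) and Itgam (-0.10 to 0.32), and for age on APdE9 sections for Cfb (-0.0045 to 0.17). The cause was not tested for any of these. The alternatives for the other complement genes were chosen after seeing the data.

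Over all genes, 684 were called in neonatal cells (220 higher), against 736 after quantile normalization (314 higher), 272 from only the arrays compared, 2160 with array weights, 263 without array 2 of neonatal cells on WT sections, and 411 and 436 without array 1 or 2 of neonatal cells on APdE9 sections. For the difference of section effects 1831 were called, against 3427 with array weights, 1208 without array 2 of neonatal cells on WT sections and 1218 without array 2 of adult cells on WT sections. Limits: 3 pools a group, levels removed by centring, age tied to medium and preparation, and C3 and C4b not analysed here.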
